A study of Mus musculus with 6 samples.

Results

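The genes described here are 9 that macrophages are known by, depend on or are specified by: the markers Lyz2, Cd68, Adgre1 and Ptprc, the receptor Csf1r, its ligands Csf1 and Il34, and the lineage transcription factors Spi1 and Irf8. They were chosen by name, with no threshold on their values. All 9 were found by Ensembl identifier among the 15663 genes listed, and all 9 had enough counts to be tested, as 13454 genes did. They were measured by RNA sequencing of RPE-choroid, the retinal pigment epithelium (RPE) with the vascular choroid beneath it, from 6 male mice of 8 to 10 weeks of age, of the strain C57BL/6 by the labels and C57BL/6J by the study's methods, housed under specific pathogen-free conditions. The 3 mice with subretinal fibrosis (SRF) had received 4 laser burns in each eye and a second burn on each lesion 10 days later, and the tissue was collected after a further 20 days. The 3 control mice were healthy and untreated, so the groups differed by both laser sessions together and the model has no group with the first laser alone.

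Macrophages are phagocytes that arise from blood monocytes or from precursors seeded before birth, and in the eye they occur in the choroid, with the related microglia in the retina. Signalling through the receptor CSF1R keeps most of them alive. CSF1 and interleukin 34 are unrelated in sequence but bind the same receptor. PU.1, the product of Spi1, is required to form the myeloid lineage and acts on many macrophage genes, in part together with IRF8. Because the RNA came from whole tissue, more cells of a type and more RNA per cell cannot be told apart in any value below.

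The libraries held between 13667310 and 24356023 counts on genes, and 3 counts corresponded to between 0.123 and 0.220 CPM (counts scaled to the normalized size of the library). The labelled tissue was checked with a list of 14 genes of the RPE, which summed to between 47850 and 54340 CPM in the control libraries and to between 34669 and 42016 CPM in the SRF libraries, so the groups did not overlap. The libraries of control mouse 1 and SRF mouse 3 stood apart from the other 4 by retinal RNA: the mean log2 CPM of 15 photoreceptor genes was 8.03 and 8.07 in these libraries and between 4.06 and 5.31 in the others. The edgeR results of the 9 genes are also given without both, and most other values below rest on all 6 libraries.

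Lyz2, Cd68 and Spi1 were about 2 to 3 times as high in SRF mice as in controls, whereas Csf1r and Il34 stayed at the level of the controls. Irf8 and Ptprc were higher in each SRF mouse by smaller amounts, and Adgre1 was higher in 2 of 3 SRF mice. Calls required an adjusted p under 0.05 together with a log2 difference of 0.5 or more. With edgeR's quasi-likelihood test and Benjamini-Hochberg adjustment over all 13454 tested genes, 0 of the 9 genes were called, and 0% of all tested genes were called in either direction. At an unadjusted p under 0.05 in edgeR, 6 of the 9 were higher in SRF and 0 were lower, beside 4.16% of all tested genes higher and 2.85% lower. With DESeq2, the tool the study used, 3 of the 9 were called higher (Lyz2, Cd68 and Spi1), beside 0.803% of all tested genes called higher and 0.334% called lower. In 5 of the 9 (Lyz2, Cd68, Ptprc, Spi1 and Irf8) every SRF mouse lay above every control mouse, which held for 6.67% of all tested genes. The median log2 fold change was 0.54 over the 9 genes and 0.0012 over all tested genes.

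**Figure D1:**
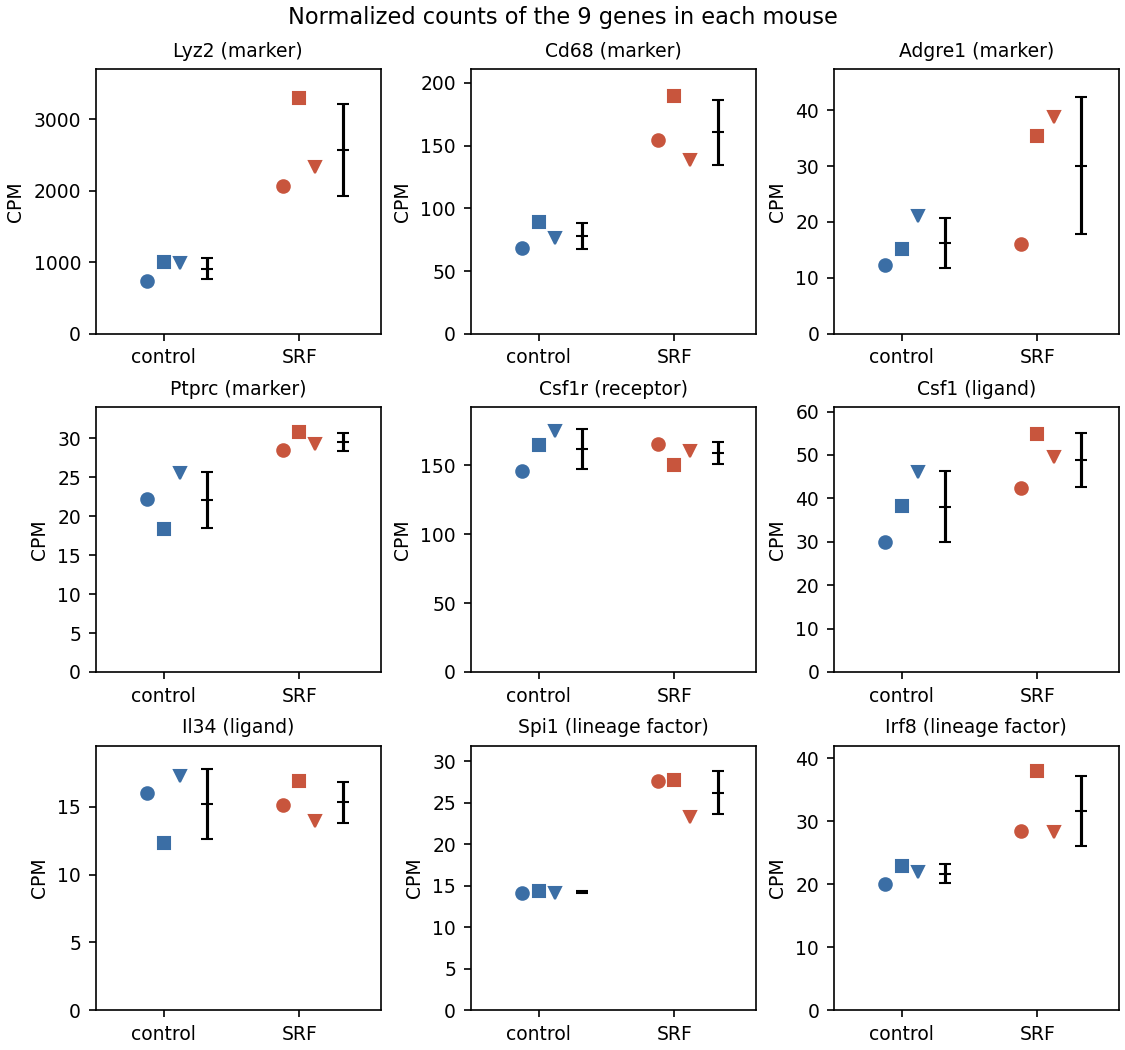
Normalized counts in CPM (vertical axes, each from 0) of the 9 genes in each of the 3 control and 3 SRF mice, with circles, squares and triangles for mice 1, 2 and 3 and black bars for the mean and SD. SRF mice lie above all controls for Lyz2, Cd68, Ptprc, Spi1 and Irf8, and the groups overlap for Adgre1, Csf1r, Csf1 and Il34.

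Lyz2 (ENSMUSG00000069516, chr10:117277331-117282321, minus strand, GRCm38) encodes the lysozyme of macrophages and neutrophils, an enzyme that cleaves bacterial cell walls. Control mice had 741, 1002 and 996 CPM and SRF mice had 2073, 3297 and 2333 CPM. The lowest SRF mouse was above the highest control mouse, and SRF mouse 2 stood highest in its group. The means were 913 ± 149 CPM in controls and 2568 ± 645 CPM in SRF (SD, n = 3 mice each), a 2.81-fold difference in edgeR. The log2 fold change was 1.49 with an SE of 0.214 and a 95% interval of 0.99 to 2.0, and its adjusted p was 0.198 with edgeR's quasi-likelihood test and 1.89e-08 with DESeq2. Lyz2 ranked 14 of 13454 by edgeR's p, and relative to the control mean the SRF mice stood at 2.27, 3.61 and 2.56. Its reads made up 0.0730% to 0.0982% of all counts in control libraries and 0.210% to 0.338% in SRF libraries.

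Lyz2 has a close relative beside it, Lyz1, the lysozyme of Paneth cells in the gut. Of the 1267 stretches of 50 nt in the Lyz2 transcript, 195 (15.4%) occur unchanged in the Lyz1 transcript, so some reads could be counted for either gene. Lyz1 had 2.82, 6.01 and 2.12 CPM in controls and 6.74, 10.9 and 5.20 CPM in SRF, with a log2 fold change of 1.06 (SE 0.476, unadjusted p = 0.0610 in edgeR) and overlapping groups. Its counts came to between 0.213% and 0.60% of those of Lyz2 in the 6 libraries. The bases before both start sites are shown because this flank is similar too, with the bases that are the same at the same distance from the start in capitals. Both are RefSeq sequences on GRCm38.p6, minus strand, bases -250 to -51 from the start, chr10:117282323-117282522 for Lyz2 and chr10:117292919-117293118 for Lyz1. In all, 102 of 200 bases (51.0%) were the same, and 79 of the 100 nearest the start.
Lyz2: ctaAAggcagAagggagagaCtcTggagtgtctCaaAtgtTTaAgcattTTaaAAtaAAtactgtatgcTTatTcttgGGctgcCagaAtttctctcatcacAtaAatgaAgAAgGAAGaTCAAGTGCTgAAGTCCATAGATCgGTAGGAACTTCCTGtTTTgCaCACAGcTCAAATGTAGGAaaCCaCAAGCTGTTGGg
Lyz1: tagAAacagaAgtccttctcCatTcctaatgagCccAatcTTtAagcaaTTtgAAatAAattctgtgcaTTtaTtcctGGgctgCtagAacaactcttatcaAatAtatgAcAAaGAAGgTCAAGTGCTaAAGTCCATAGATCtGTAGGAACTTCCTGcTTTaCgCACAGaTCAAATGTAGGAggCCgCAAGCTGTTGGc

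Cd68 (ENSMUSG00000018774, chr11:69664213-69666153, minus strand) encodes a membrane protein of lysosomes and endosomes that is widely used to stain macrophages. It had 68.3, 88.7 and 76.2 CPM in controls and 154, 189 and 138 CPM in SRF mice. No SRF mouse fell into the control range, and SRF mouse 2 was again the highest. Means were 77.7 ± 10.3 and 160 ± 26.1 CPM (SD, n = 3 mice each), which is 2.06-fold in edgeR. The log2 fold change of 1.05 had an SE of 0.161 and a 95% interval of 0.66 to 1.43, with an adjusted p of 0.198 in edgeR and 9.54e-06 in DESeq2. The lysosomal proteins LAMP1 and LAMP2 belong to the same family as CD68, but their genes are expressed in most cells. Lamp1 had 520 to 718 CPM in controls and 576 to 765 CPM in SRF (log2 0.19, SE 0.171), and Lamp2 had 359 to 582 and 368 to 535 CPM (log2 -0.01, SE 0.218), and the groups overlapped for both relatives.

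The flank of Cd68 is shown because a 6-base core that PU.1 is known to bind, GAGGAA, was found in it. Promoters of 300 bases, from 250 before to 50 after a start site, were in the RefSeq table for 5 of the 9 genes (Lyz2, Cd68, Ptprc, Csf1 and Irf8), and both strands were searched for GAGGAA and for a composite of the PU.1 and IRF cores, GGAA followed by any 2 bases and GAAA. The capitals mark the match on the same strand, which starts at base -225.
Cd68, chr11:69666221-69666420, minus strand, GRCm38.p6, bases -250 to -51: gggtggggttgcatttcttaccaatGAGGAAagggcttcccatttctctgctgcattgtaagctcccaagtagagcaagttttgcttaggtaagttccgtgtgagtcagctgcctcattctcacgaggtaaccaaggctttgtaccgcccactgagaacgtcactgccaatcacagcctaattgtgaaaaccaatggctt
A second GAGGAA of Cd68 starts at base 30 on the opposite strand and overlaps the composite, which starts at base 24, outside the stretch printed. Ptprc held 1 GAGGAA, at base -158 from the first of its RefSeq starts. Neither motif was in the windows of Lyz2, Csf1 or Irf8. Of 32851 promoters of the same length, 28.3% held GAGGAA and 2.72% held the composite, so a match to the first is common.

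Adgre1 (ENSMUSG00000004730, chr17:57358691-57483527, plus strand) encodes F4/80, the surface receptor most used to identify mouse macrophages. Control mice had 12.3, 15.1 and 21.1 CPM, and SRF mice had 16.1, 35.3 and 38.8 CPM. SRF mouse 1 lay within the control range at 0.994 times the control mean, and the other two SRF mice were at 2.18 and 2.40 times. The log2 fold change was 0.89 with an SE of 0.356, the largest SE of the 9 genes, and a 95% interval of 0.05 to 1.73. Its adjusted p was 0.672 with edgeR's quasi-likelihood test and 0.398 with DESeq2. The value depended on single libraries. Without SRF mouse 1 the log2 fold change was 1.18 in edgeR (adjusted p = 0.566) and 1.19 in DESeq2 (adjusted p = 0.0141), so Adgre1 was called by DESeq2 there. Without both control mouse 1 and SRF mouse 3 it was 0.49 in edgeR (adjusted p = 0.466).

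The 6 libraries fell into the same order for Adgre1, the microglial gene Tmem119 and the sum of 5 listed microglial genes. In it SRF mouse 1 lay between control mouse 2 and control mouse 3. The sum includes Tmem119 as its largest part, so it is not a separate match. For the sum of the fibroblast genes only SRF mouse 2 and control mouse 3 were exchanged in this order. Tmem119 had 45.6, 53.3 and 88.4 CPM in controls and 57.3, 95 and 105 CPM in SRF. The microglial genes summed to between 65.2 and 109 CPM in controls and to between 76.1 and 139 CPM in SRF, and the groups overlapped. The part of microglia or of other cells in the Adgre1 values was not tested.

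Ptprc (ENSMUSG00000026395, chr1:138062861-138175708, minus strand) encodes CD45, a phosphatase carried by all nucleated blood cells. Its values were 22.2, 18.4 and 25.6 CPM in controls and 28.5, 30.8 and 29.3 CPM in SRF mice. The groups did not overlap, but the gap between control mouse 3 and SRF mouse 1 was small. Means were 22.1 ± 3.58 and 29.6 ± 1.19 CPM (SD, n = 3 mice each), and the log2 fold change of 0.42 had an SE of 0.149 and a 95% interval of 0.07 to 0.77. The adjusted p was 0.596 in edgeR and 0.577 in DESeq2.

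**Figure D2:**
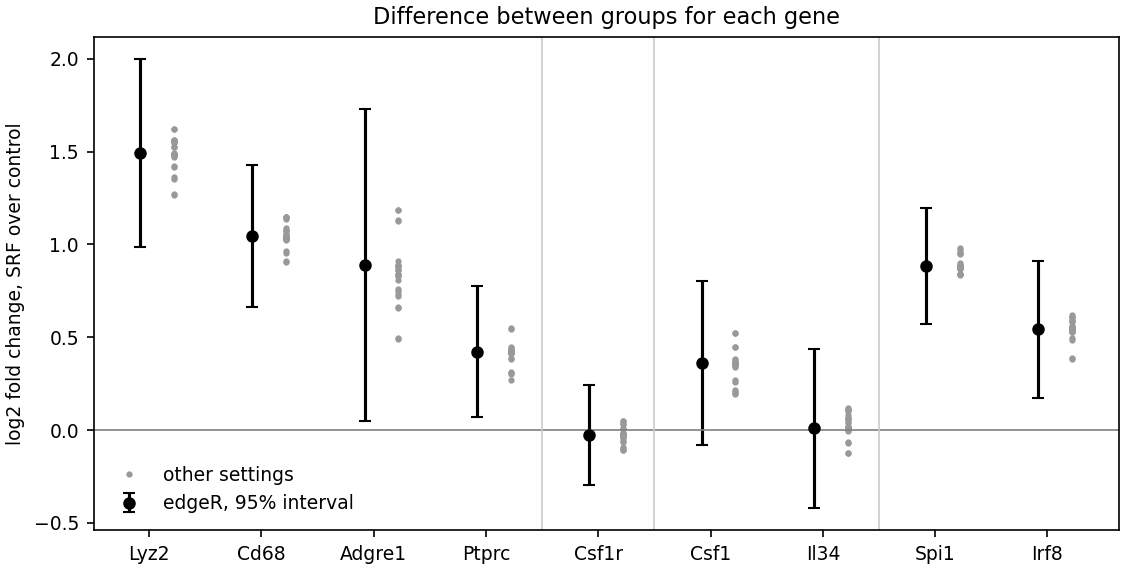
Log2 fold change of SRF over control (vertical axis) for each of the 9 genes, with the edgeR estimate and its 95% interval in black and the 24 other settings as small grey points. The intervals of Csf1r, Csf1 and Il34 include 0, and those of the markers and of both lineage factors lie above it.

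Csf1r (ENSMUSG00000024621, chr18:61100598-61132149, plus strand) encodes the tyrosine kinase receptor on which macrophage survival depends. It had 146, 165 and 175 CPM in control mice and 166, 150 and 160 CPM in SRF mice. All 3 SRF mice lay inside the control range. Means were 162 ± 14.6 and 159 ± 7.86 CPM (SD, n = 3 mice each). The log2 fold change was -0.03 with an SE of 0.114, the smallest SE of the 9 genes, and the 95% interval ran from -0.30 to 0.24. Its upper bound was under the log2 fold change estimated for each marker and each lineage factor. The intervals of Adgre1, Ptprc and Irf8 began lower, at 0.05, 0.07 and 0.17, and so overlapped with that of Csf1r. With edgeR the adjusted p was 1.0, and Csf1r ranked 10863 of 13454 by p. The sign of so small a value changed with the setting, from -0.11 to 0.05 over 24 alternatives. Csf1r overlaps Hmgxb3 on the opposite strand, and without strand reads in the overlap could be counted for either gene. Hmgxb3 had 16.7 to 21.8 CPM in controls and 15.9 to 19.1 CPM in SRF, with a log2 fold change of -0.15.

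Csf1 (ENSMUSG00000014599, chr3:107741048-107760469, minus strand) encodes macrophage colony-stimulating factor, the broadly made ligand of the receptor. It had 29.9, 38.2 and 46.2 CPM in controls and 42.4, 54.9 and 49.5 CPM in SRF mice. SRF mouse 1 lay below control mouse 3, so the groups overlapped. Csf1 had a log2 fold change of 0.36 (SE 0.187, 95% interval -0.08 to 0.80), with an adjusted p of 0.808 in edgeR and 0.907 in DESeq2. The interval includes both 0 and the estimates for Ptprc and Irf8.

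Il34 (ENSMUSG00000031750, chr8:110741829-110805924, minus strand) encodes interleukin 34, the ligand made mainly in brain, skin and retina. Control mice had 16.0, 12.3 and 17.3 CPM and SRF mice had 15.2, 16.9 and 13.9 CPM. The SRF mice lay within the control range, as they did for Csf1r. Means were 15.2 ± 2.57 and 15.3 ± 1.49 CPM (SD, n = 3 mice each), and the log2 fold change was 0.01 (SE 0.181, 95% interval -0.42 to 0.44). The adjusted p was 1.0 in both edgeR and DESeq2, and the sign changed with the libraries used, from -0.13 to 0.12 over 24 alternatives.

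Spi1 (ENSMUSG00000002111, chr2:91082390-91115756, plus strand) was the lineage factor with the larger difference. It had 14.1, 14.3 and 14.2 CPM in controls and 27.7, 27.7 and 23.2 CPM in SRF mice. The control mice were nearly equal in CPM, with an SD of 0.126 around a mean of 14.2, but less so in FPKM (6.83, 6.90 and 8.15). The SRF mean was 26.2 ± 2.57 CPM (n = 3 mice each). Behind these values were 190 to 340 counts in control libraries and 416 to 513 in SRF libraries, so counting error alone exceeds the spread seen among controls. The log2 fold change of 0.88 (1.85-fold) had an SE of 0.132 and a 95% interval of 0.57 to 1.20. Its adjusted p was 0.198 with edgeR's quasi-likelihood test and 3.52e-04 with DESeq2. Spi1 ranked 17 of 13454 by edgeR's p, between Lyz2 at 14 and Cd68 at 22.

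Irf8 (ENSMUSG00000041515, chr8:120736358-120756694, plus strand) encodes a factor needed for monocytes and dendritic cells. Controls had 20.1, 23.0 and 22 CPM and SRF mice had 28.5, 38.0 and 28.3 CPM. The groups did not overlap, and SRF mouse 2 stood above the other SRF mice. Means were 21.7 ± 1.48 and 31.6 ± 5.56 CPM (SD, n = 3 mice each). Irf8 had a log2 fold change of 0.54 (SE 0.156, 95% interval 0.17 to 0.91), and the adjusted p of 0.441 in edgeR and 0.247 in DESeq2 did not reach the threshold. Irf8 overlaps the gene model Gm20388 on the same strand, which had 29.6 to 37.3 CPM in controls and 19.7 to 36.3 CPM in SRF (log2 -0.25), so its counts are uncertain by how overlapping reads were assigned.

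The 6 libraries stood in the same order for Cd68, Spi1 and Irf8, with control mouse 1 lowest and SRF mouse 2 highest. For Lyz2 only SRF mice 1 and 3 were exchanged. Within the groups this order rests in part on very small differences. For Spi1 the controls were nearly equal in CPM, and SRF mice 1 and 2 had 27.67 and 27.72 CPM. For Irf8, SRF mice 1 and 3 had 28.48 and 28.27 CPM. How many other genes share the order was not counted. The order for Ptprc was another one, and it was also that of the summed B cell genes, which were 34.1 to 44.5 CPM in controls and 49.3 to 62.2 CPM in SRF. The part of B cells in the Ptprc values was not tested.

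Without the libraries of control mouse 1 and SRF mouse 3, Lyz2, Cd68 and Spi1 were called by edgeR as well, at adjusted p-values of 0.0190, 0.0188 and 0.0308, beside 0.837% of the 13145 genes then tested that were called higher. In DESeq2 these genes were called when any 1 of the 6 mice was left out, with adjusted p-values of at most 1.40e-05 for Lyz2, 0.00172 for Cd68 and 0.0250 for Spi1. Over the other genes, edgeR without both libraries gave a log2 fold change of 0.42 for Ptprc, 0.56 for Irf8, 0.20 for Csf1, -0.10 for Csf1r and 0.11 for Il34. For Lyz2, Cd68 and Spi1 the log2 fold changes ranged from 1.26 to 1.62, from 0.90 to 1.15 and from 0.84 to 0.98 over the 24 alternatives.

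Levels of different genes were compared in FPKM, which is scaled by transcript length. In control mice Lyz2 was the highest of the 9 genes at 555 to 746 FPKM, followed by Cd68 at 54.8 to 70.5, Csf1r at 36.7 to 43.8 and Csf1 at 10.3 to 15.1 FPKM, with no overlap between neighbours down to Il34. Il34 (7.04 to 9.94 FPKM), Irf8 (6.94 to 8.19 FPKM) and Spi1 (6.83 to 8.15 FPKM) overlapped in turn, and Ptprc (4.97 to 5.84 FPKM) overlapped with Adgre1 (3.75 to 6.43 FPKM). In SRF mice the order of the first 4 was the same, with Lyz2 at 1598 to 2571 FPKM, Cd68 at 113 to 158 FPKM and Csf1r at 40.6 to 43.1 FPKM. Spi1 was below Il34 and Irf8 by mean FPKM in controls and above both in SRF (13.5 to 15.9 FPKM), where it overlapped with Csf1 at 13.8 to 18.3 FPKM. Ptprc was the lowest in SRF at 6.42 to 6.94 FPKM.

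**Figure D3:**
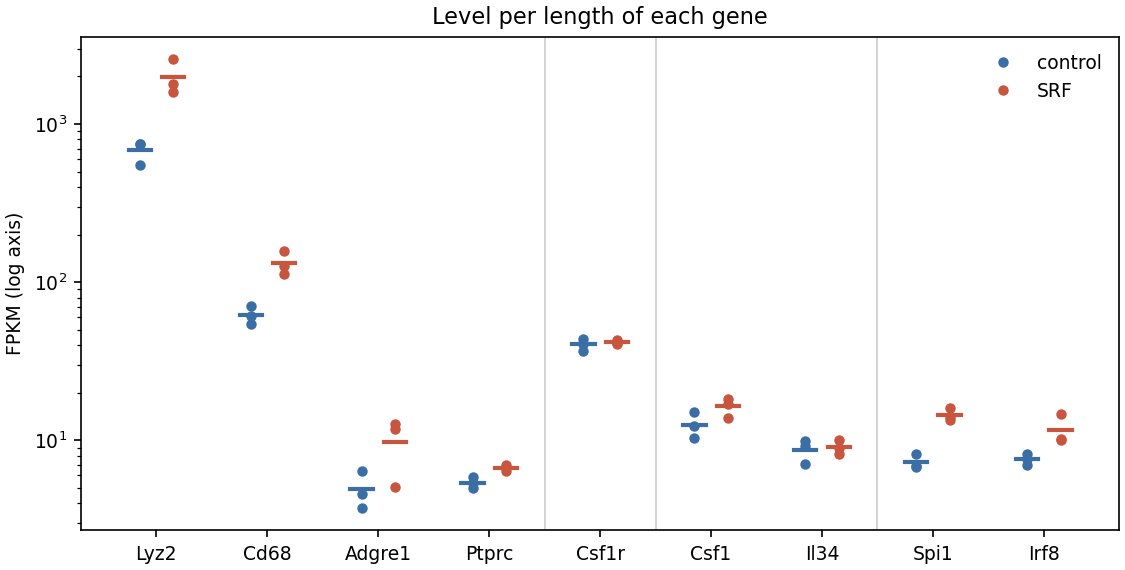
Level of each of the 9 genes in FPKM (vertical axis, log scale) in 3 control and 3 SRF mice, with a point for each mouse and a bar for the group mean. Lyz2 is the highest gene in both groups, and Spi1 moves from below Il34 in controls to above it in SRF.

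To contrast the markers, ligands and lineage factors with the receptor inside each library, the log2 ratio of each gene's CPM to that of Csf1r was compared between groups with a two-sided exact permutation test, which cannot give a p under 0.1 for 3 mice against 3. The ratio of Lyz2 to Csf1r was 2.34, 2.61 and 2.51 in controls and 3.64, 4.45 and 3.86 in SRF mice, a difference of 1.5 on the log2 scale. That of Cd68 was -1.10, -0.89 and -1.20 in controls and -0.11, 0.33 and -0.21 in SRF, a difference of 1.07. That of Spi1 was -3.37, -3.52 and -3.62 in controls and -2.58, -2.44 and -2.78 in SRF, a difference of 0.90. The differences were 0.56 for Irf8 and 0.46 for Ptprc. For these 5 genes the ratios of the groups did not overlap. The exact permutation p was 0.1, the smallest possible, or 0.16 after Benjamini-Hochberg adjustment over the 8 ratios. The same 5 genes were separate in CPM, as 6.67% of all tested genes were, and Csf1r had a log2 fold change of only -0.03. The ratios are therefore not a separate result. How many of all tested genes separate in this ratio was not counted. For Ptprc the separation depended on the setting. Its ratio to Csf1r differed by 0.27 in FPKM (exact permutation p = 0.2) and by 0.39 without SRF mouse 2 (exact permutation p = 0.2).

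The ratios of Adgre1 and of both ligands to Csf1r overlapped between groups. Adgre1 differed by 0.85 (exact permutation p = 0.2) and Csf1 by 0.40 (exact permutation p = 0.2), each with an adjusted p of 0.229. Without SRF mouse 1 the difference of Adgre1 was 1.28, and without both control mouse 1 and SRF mouse 3 it was 0.52. The ratio of Il34 to Csf1r differed by 0.04 (exact permutation p = 0.9, adjusted p = 0.9). For both ligands the mice of the groups were mixed in this ratio, which does not show that the ratios are equal.

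**Figure D4:**
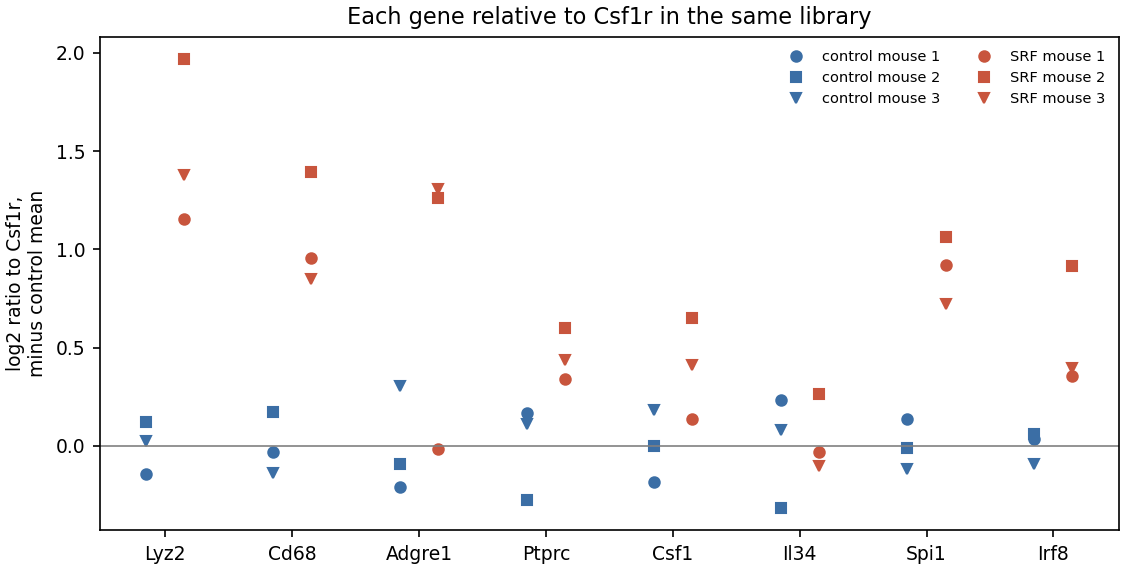
Log2 ratio of the CPM of 8 genes to that of Csf1r in each library, with the mean of the control mice set to 0 (vertical axis) and a point for each of the 3 control and 3 SRF mice. The SRF points of Lyz2, Cd68, Ptprc, Spi1 and Irf8 lie above all control points, and those of Adgre1, Csf1 and Il34 overlap with them.

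Other genes of the same biology were taken from lists. Of 15 other surface genes of leukocytes and macrophages, 14 were tested. At an unadjusted p under 0.05 in edgeR, 8 were higher and 0 lower, beside 4.16% of all tested genes higher and 2.85% lower. DESeq2 called 4 of the 14 higher (Itgb2, Fcer1g, Laptm5 and Cd53), beside 0.803% of all tested genes. The median log2 fold change of this list was 0.61. Itgb2, the beta chain of the leukocyte integrins, had 16.3, 17.3 and 17.2 CPM in controls and 29.5, 49.1 and 43.5 CPM in SRF (log2 1.27, SE 0.197). Fcer1g, the signalling chain of Fc receptors, had 62.0 to 67.4 CPM in controls and 88.8 to 124 CPM in SRF (log2 0.76, SE 0.145). Both groups of mice were separate for these genes. Itgam and Mertk were named after their values were seen. Itgam, the alpha chain that pairs with Itgb2 in CD11b/CD18, had a log2 fold change of 0.03, and Mertk, a receptor for dying cells that the RPE also uses, had -0.11.

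Of 23 genes of CSF1R signalling and shedding, all tested, 7 were higher at an unadjusted p under 0.05 in edgeR and 0 lower. This stood beside 4.16% of all tested genes higher and 2.85% lower. The list median was 0.32. DESeq2 called 1 of the 23 higher, beside 0.803% of all tested genes. It was Tyrobp, the adaptor DAP12 that also serves TREM2. Tyrobp had 59.9, 67.5 and 64.0 CPM in controls and 110, 132 and 91.2 CPM in SRF (log2 0.80, SE 0.153), without overlap. The kinase Akt1 (log2 0.41), the factor Stat3 (0.41), and the feedback inhibitors Socs1 (0.80) and Socs3 (0.54) were higher at an unadjusted p under 0.05 in edgeR, and none of these 4 was called by DESeq2.

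Of 14 other haematopoietic cytokines and receptors, 12 were listed and 10 tested. DESeq2 called 2 of the 10 higher, beside 0.803% of all tested genes. Csf2 and Csf3, which encode the granulocyte-macrophage and granulocyte colony-stimulating factors, were not in the list of genes counted. Their receptors were measured. Csf3r, for the granulocyte factor, had 2.38, 3.74 and 3.04 CPM in controls and 3.61, 5.83 and 7.71 CPM in SRF (log2 0.90, SE 0.367), with overlapping groups. Csf2ra had 14.8, 14.7 and 11.4 CPM in controls and 27.5, 28.3 and 22.8 CPM in SRF (log2 0.95, SE 0.167), and DESeq2 called it. Trem2, a lipid receptor of macrophages and microglia, had 23.8, 34.6 and 27.1 CPM in controls and 64.4, 74.9 and 47.8 CPM in SRF (log2 1.13, SE 0.213), and was the other gene that DESeq2 called. The groups did not overlap for Csf2ra and Trem2. Csf2rb, the beta chain, had a log2 fold change of 0.55 (unadjusted p = 0.128 in edgeR), and its close copy Csf2rb2 had 1.12, a pair between which reads may have been split. Kit, another receptor of the same kinase class as CSF1R, had 24.9 to 27.0 CPM in controls and 25.4 to 30.7 CPM in SRF (log2 0.10). Ptprz1 and Sdc1, which encode further binding partners of interleukin 34, had log2 fold changes of -0.21 and 0.02 with overlapping groups.

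Of 24 other myeloid transcription factors, 22 were listed and 19 tested. At an unadjusted p under 0.05 in edgeR 5 were higher and 1 was lower, beside 4.16% and 2.85% of all tested genes. DESeq2 called 1 higher and 1 lower, beside 0.803% and 0.334% of all tested genes. The median of these factors, 0.10, was below that of the other lists. Cebpb, a factor of macrophage activation, had 10.0, 17.3 and 14.5 CPM in controls and 40.1, 42.3 and 23.0 CPM in SRF (log2 1.33, SE 0.292), and DESeq2 called it higher. Nr4a1, an immediate early gene that patrolling monocytes depend on, had 78.6, 363 and 289 CPM in controls and 27.8, 23.4 and 48.7 CPM in SRF (log2 -2.87, SE 0.580), and DESeq2 called it lower. Cebpa (0.65), Irf5 (0.71) and Runx1 (0.66) had log2 fold changes in the range of Spi1 and Irf8 and did not pass DESeq2's test. Maf had a log2 fold change of 0.10 with overlapping groups.

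Of 25 relatives of the 9 genes by family, 24 were listed and 19 tested. At an unadjusted p under 0.05 in edgeR 4 were higher, beside 4.16% of all tested genes, and DESeq2 called none of the 19. The list median was 0.19. The phosphatase Ptpra, related to CD45, had 136 to 209 CPM in controls and 227 to 289 CPM in SRF (log2 0.65, SE 0.188). The PDGF receptors, kinases of the class of CSF1R that fibroblasts and pericytes carry, had log2 fold changes of 0.43 (Pdgfrb) and 0.19 (Pdgfra), and Adgre5, related to Adgre1, had 0.24, all with overlapping groups.

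**Figure D5:**
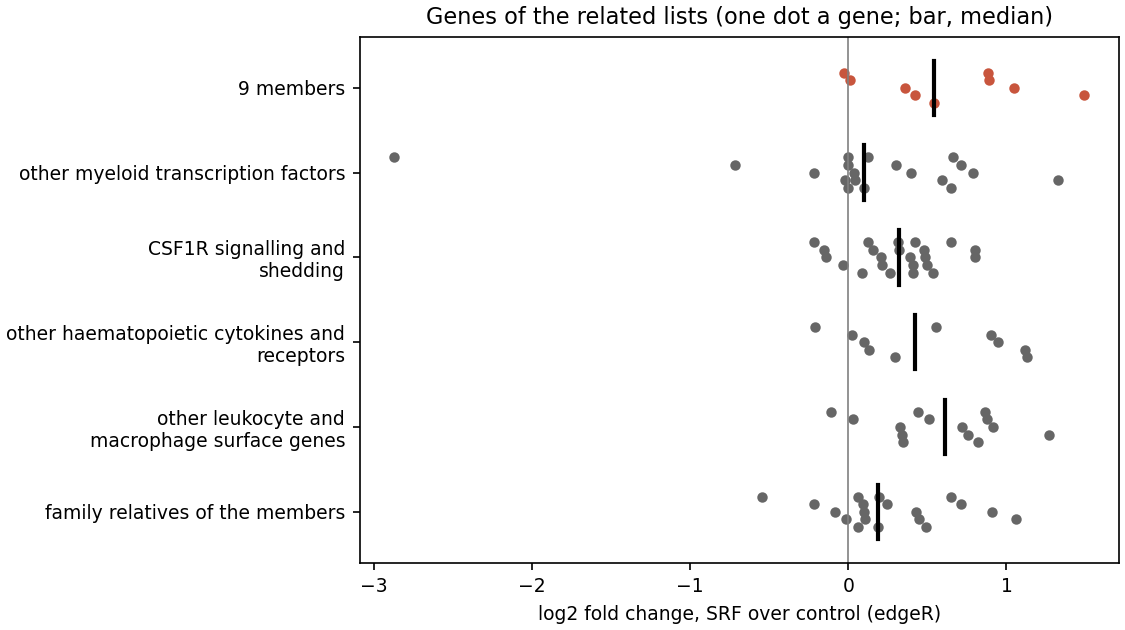
Log2 fold change of SRF over control in edgeR (horizontal axis) of the 9 genes (orange) and of the tested genes of 5 related lists (grey), with a point for each gene and a bar for each list median. The medians run from 0.10 for the other myeloid transcription factors to 0.61 for the other surface genes, and Nr4a1 lies far to the left at -2.87.

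Markers of the cell types that share these genes were measured beside them, and their part in the results was not tested. Of 12 neutrophil genes 8 were listed, Ly6g, Ngp, Elane and Mpo not among them, and they summed to between 14.0 and 26.6 CPM in controls and to between 19.1 and 22.9 CPM in SRF. Neutrophils also carry Lyz2, and their sums overlapped between the groups. Of the 4 neutrophil genes tested, 2 had positive and 2 had negative log2 fold changes. Only 1 of the 4, Csf3r (log2 0.90), was higher at an unadjusted p under 0.05 in edgeR, beside 4.16% of all tested genes. Genes of resident macrophages summed to between 61.1 and 158 CPM in controls and to between 101 and 132 CPM in SRF. Genes of monocytes summed to between 46.3 and 51.5 CPM in controls and to between 30.6 and 50.4 CPM in SRF. For both lists the groups overlapped. Of the 4 monocyte genes tested, 2 were lower at an unadjusted p under 0.05 in edgeR and 0 higher. This stood beside 2.85% of all tested genes lower. The median log2 fold change of the monocyte genes was -0.62, and DESeq2 called 0 of them. Dendritic cell genes, some of which depend on Irf8, summed to between 28.9 and 35.7 CPM in controls and between 35.0 and 43.4 CPM in SRF, again with overlap, and of these DESeq2 called Itgax higher.

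Among the other blood cells that carry Ptprc, T cell genes summed to between 22.1 and 28.2 CPM in controls and to between 15.8 and 19.5 CPM in SRF, and NK cell genes to between 9.69 and 11.3 CPM and between 6.20 and 8.0 CPM. Both sums were lower in every SRF mouse than in any control mouse, and their part in the Ptprc values was not tested. Both lists were low: 2 of 11 T cell genes and 1 of 6 NK cell genes had enough counts to be tested. Of the T cell genes, Lck had a log2 fold change of -0.60 and Cd4 of 0.35. The NK cell gene tested was Nkg7, with 6.16 to 6.55 CPM in controls and 2.75 to 3.78 CPM in SRF. The other NK cell genes went both ways, with Gzma lower by mean CPM and Klrk1 higher. Mast cell genes summed to between 43.9 and 52.8 CPM in controls and to between 66.8 and 73.5 CPM in SRF, and DESeq2 called Cma1 and Tpsb2, proteases of mast cell granules, higher. Fibroblast genes, of a cell type that makes Csf1, summed to between 4308 and 10057 CPM in controls and to between 6613 and 11014 CPM in SRF, with overlapping groups.

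Genes with the most similar profile were found as those with the smallest root mean square difference in centred log2 CPM over the 6 libraries. For Lyz2 they were Cd300lf (0.0509), Clec7a (0.122) and Glipr1 (0.129), of which Clec7a encodes the fungal receptor dectin-1. For Spi1 they were Acp5 (0.0527), Bbc3 (0.0755) and Adamts6 (0.0819), of which Acp5 encodes the tartrate-resistant acid phosphatase of osteoclasts and macrophages. For Csf1 they were Scara3 (0.0433), Col6a1 (0.0449) and Chst15 (0.0470), of which Col6a1 encodes a chain of collagen VI. Csf1r was close to Hdac4 (0.0272) and Rnf8 (0.0292), and Il34 to Nxpe4 (0.0479), Alkbh4 (0.0508) and 2700062C07Rik (0.0574), all genes with log2 fold changes between -0.06 and 0.05. These likenesses are descriptions over 6 libraries.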

How the data were processed

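RNA was sequenced from the RPE-choroid of 3 control and 3 SRF mice, grouped and numbered by their sample labels. The authors filtered reads with FASTP, and the deposited counts are whole, unnormalized reads per gene from StringTie. The authors also deposited FPKM values, which scale fragments to the length of the transcript and to the mapped reads. The aligner, genome build and strandedness are not given in the sources used here. Gene positions came from GENCODE M21 (GRCm38), which holds 15659 of 15663 identifiers. The lowest count in any library was 1, so genes at 0 may have been left out of the tables.

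The filter was the study's, over 50 counts in 2 or more libraries. The test was edgeR 4.0.16 in R 4.3.3 (TMM, glmQLFit, glmQLFTest, group only) with Benjamini-Hochberg adjustment. The median SE over tested genes was 0.188 on the log2 scale. CPM values are TMM-normalized, with a prior count of 0.5 in the log2 CPM behind ratios and profiles. Alternatives were DESeq2 1.42.0, limma 3.58.1 on log2(FPKM + 1) or log2(FPKM + 0.1), RLE normalization, no count filter, the newer quasi-likelihood form, a replicate block, a photoreceptor covariate and leaving out mice. Scripts were tested on simulated data, called by the same rule. Of 100 genes with a true log2 fold of 1 either way, edgeR recovered 19% and DESeq2 54%. Of 100 with a true log2 fold of 2, edgeR recovered 84% and DESeq2 93%. Genes not changed made up 7 of 110 calls in edgeR and 43 of 190 calls in DESeq2. The p-values measure the spread between 3 mice per group.

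The genes, lists and alternatives were chosen with earlier results of these data known. Named list genes were up to 6 per list with the smallest p, plus chosen relatives and partners, and results for a few genes are not reported here. Promoters are RefSeq sequences.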

Additional observations from a re-analysis of the deposited data

How the results depend on the processing

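Over 24 alternatives the log2 fold changes of Lyz2, Cd68, Adgre1, Ptprc, Csf1, Spi1 and Irf8 kept their sign. Of the 9 genes, 3 were called by DESeq2, by DESeq2 with a replicate block, by DESeq2 with a photoreceptor covariate, and by edgeR or DESeq2 without control mouse 1 and SRF mouse 3, and, leaving out 1 mouse, 0 by edgeR and 3 to 4 by DESeq2. Over all genes edgeR called 0, but 1 without a count filter, 1 in the newer quasi-likelihood form, 1 with the photoreceptor covariate, 0 to 5 leaving out 1 mouse (5 without control mouse 1) and 153 without control mouse 1 and SRF mouse 3, and limma called 2 on log2(FPKM + 1) and 2 on log2(FPKM + 0.1). DESeq2 called 153, and 201 with the block, 257 with the covariate, 67 to 343 leaving out 1 mouse (67 without SRF mouse 2, 90 without control mouse 2, 246 without control mouse 1, 343 without SRF mouse 3) and 507 without both. In each related list edgeR called 0 when 1 mouse was left out, and the ranges below are those of DESeq2. Among the other transcription factors 0 were called in edgeR, 2 in DESeq2, in DESeq2 with block or covariate and in edgeR without both mice, 4 in DESeq2 without both and 0 to 3 leaving out 1 mouse (0 without SRF mouse 1 or 2). In the same order these counts were 0, 1, 2 and 1 to 2 in CSF1R signalling and 0, 2, 2 and 0 to 2 in cytokines and receptors (0 without SRF mouse 2). Surface genes gave 0 in edgeR, 4 in DESeq2, 5 with block or covariate, 2 in edgeR and 6 in DESeq2 without both, and 2 (without SRF mouse 2) to 6 leaving out 1 mouse. Relatives gave 0 in edgeR and DESeq2, 1 with block or covariate, 1 and 2 without both, and 0 to 1 leaving out 1 mouse. The cause of these differences was not tested.

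Signs turned only for Csf1r and Il34. Csf1r had a log2 fold change of 0.047 in limma on log2(FPKM + 1) and 0.048 on log2(FPKM + 0.1), and leaving out 1 mouse gave -0.10 to 0.034, above 0 without control mouse 3 or SRF mouse 2. Il34 had -0.0037 in DESeq2 with the covariate, and leaving out 1 mouse gave -0.13 to 0.12, below 0 without control mouse 2 or SRF mouse 2. The ratio of Il34 to Csf1r differed by -0.11 to 0.16 leaving out 1 mouse, below 0 without the same mice.

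Equal numbers mark different animals. The deviations of same-numbered mice from their group means correlated at -0.482, 0.478 and -0.305 over 13454 genes, without a common sign. Control mouse 1 and SRF mouse 3 stood apart by retinal RNA, so these values cannot show whether equal numbers share a batch. With a replicate block in edgeR, 0 of the 9 genes were called (adjusted p = 0.302 for Lyz2 and Cd68 and 0.345 for Spi1).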
